A study of Mus musculus with 8 samples.

Results

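Retinoic acid, the active form of vitamin A, patterns the hindbrain, somites, heart and limbs of the mouse embryo. Retinol travels in blood on the carrier Rbp4 and enters some cells through the membrane receptor Stra6. Retinaldehyde dehydrogenases such as Aldh1a1 and Aldh1a2 make retinoic acid, the binding proteins Crabp1 and Crabp2 hold it in the cytoplasm, Cyp26a1 oxidises it, and the nuclear receptors Rara and Rarb switch genes in response to it. Aldh1a2 is the main source of retinoic acid in the early embryo, and Cyp26a1 and Rarb are themselves textbook targets of retinoic acid.

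These 9 genes were followed across 8 Affymetrix mouse genome arrays, a 1-colour expression platform. They were chosen by gene symbol, each was represented by 1 probe set that the platform annotation assigns to a single gene, and they are 9 of 18193 genes named in this way among 45037 probe sets. RNA came from the embryo proper of wild-type mice and of mice lacking Runx1, a transcription factor required for definitive blood formation. The 4 groups were wild type at embryonic day 8.5 (E8.5), Runx1 knockout at E8.5, wild type at E12 and Runx1 knockout at E12, with 2 biological replicates in each. Per the study's methods the line was kept on a BalbC background. Going by the 2 embryo propers described per group, each array appears to hold 1. The knockout allele, its deleted part and the sex of the embryos were not found in the labels or the methods. All values are log2 of the deposited intensities, so a difference of 1 is a 2-fold difference.

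The labels could not be checked on the targeted gene itself. Runx1 had 6 probe sets, with values from 3.71 to 7.10 over the 8 arrays. In the arrays labelled knockout, the mean was higher than in wild type for 6 of the 6 probe sets at E8.5, and lower for 3 and higher for 3 at E12. Where these probe sets lie relative to the deleted part is not known, so every direction given here for the knockout rests on the labels.

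Promoter sequence is shown for Cyp26a1 and Rarb because theirs were the only member promoters that held a direct repeat of the half-site read by retinoic acid receptors. The RefSeq promoter table (assembly GRCm38.p6) held 16 promoters of 300 bases for 8 of the 9 members, and none for Crabp2. The search took the consensus half-site AGGTCA, its variant AGTTCA, the further variant GGGTCA and lastly the variant GGTTCA, repeated head to tail with 1, 2 or 5 bases between them, on both strands. Such a repeat was found in 2 of the 16 member promoters and in 0.588% of 32851 promoters of the same length, and a repeat with 5 bases between the half-sites, which both of these have, in 0.0974%. The windows follow with the half-sites in capitals, each on the strand of its gene.
Cyp26a1, chr19:37697770-37697798, plus strand: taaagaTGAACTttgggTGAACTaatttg
Rarb, chr14:16575507-16575535, minus strand: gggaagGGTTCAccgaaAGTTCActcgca
The Cyp26a1 repeat begins 32 bases before the transcription start and reads AGTTCA on the opposite strand, which is why TGAACT is printed. The Rarb repeat begins 53 bases before the start. The RUNX motif TGTGGT, searched on both strands, was present in 3 member promoters, those of Rara, Rbp4 and Stra6, and in 16.8% of all promoters, and it overlapped neither repeat. These matches describe the letters of the windows, and no binding was measured.

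Before the results, 1 array has to be set apart. Replicate 1 of the E8.5 wild type correlated with replicate 2 at r = 0.927 over all probe sets, against 0.983, 0.965 and 0.992 for the other replicate pairs, and 1560 probe sets (3.46%) differed by more than 2 between the E8.5 wild-type arrays. Of 10 trophoblast markers, genes of the placental lineage, 6 were measured, and their mean was 8.64 in this array, from 5.52 to 6.03 in the other E8.5 arrays and from 5.06 to 5.28 at E12. Tpbpa, which marks the spongiotrophoblast, stood at 9.52 there against 4.15 to 4.24 in the other E8.5 arrays, and Ascl2, a transcription factor of the same lineage, at 10.75 against 4.98 to 7.35. Not all 6 stood out, since Ctsq (4.34 to 4.66) and Psg17 (3.28 to 3.64) read low in every E8.5 array. Lists of embryo markers had lower means in the same array than in the other E8.5 arrays. These were 5.30 against 5.69 to 5.95 for neural tube and 4.58 against 5.26 to 5.75 for paraxial mesoderm. For heart the mean was 5.66 against 6.66 to 7.77. Hoxb1, a hindbrain Hox gene, was at 3.81 against 8.48 to 9.49 in the other E8.5 arrays, and Meis2, a homeobox gene of the trunk and hindbrain, at 6.25 against 10.00 to 10.59. Tpbpa, Ascl2, Hoxb1 and Meis2 were picked from the lists after their values were seen. The 14 measured genes of 17 known to respond to retinoic acid had a mean of 5.38 in this array and of 7.27, 6.59 and 6.67 in the other E8.5 arrays. Hoxb1 and Meis2 belong to these 14, but not all of them were low here. Tgm2 read 11.74 against 8.80 to 9.43 in the other E8.5 arrays, and Nr2f2 read 8.52 against 7.22 to 8.39. Results for the members that use this array, and those of the pathway genes named further on, are therefore also given without it. Yet the trophoblast marker Plac1 read 8.48 to 9.45 in the other E8.5 arrays, and the E12 arrays gave 5.31 to 5.71. Prl8a2, a decidua marker, lay within 6.90 to 8.49 in every E8.5 array, while E12 arrays gave 4.01 to 4.76. Both were picked after their values were seen. Of the same lists, Tpbpa, Ctsq, Psg17, Hoxa10, Hoxa11, Htra3 and Wnt4 were higher at E12 than in the other E8.5 arrays. The part of trophoblast or decidua in these results, stage differences included, was not tested.

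**Figure D1:**
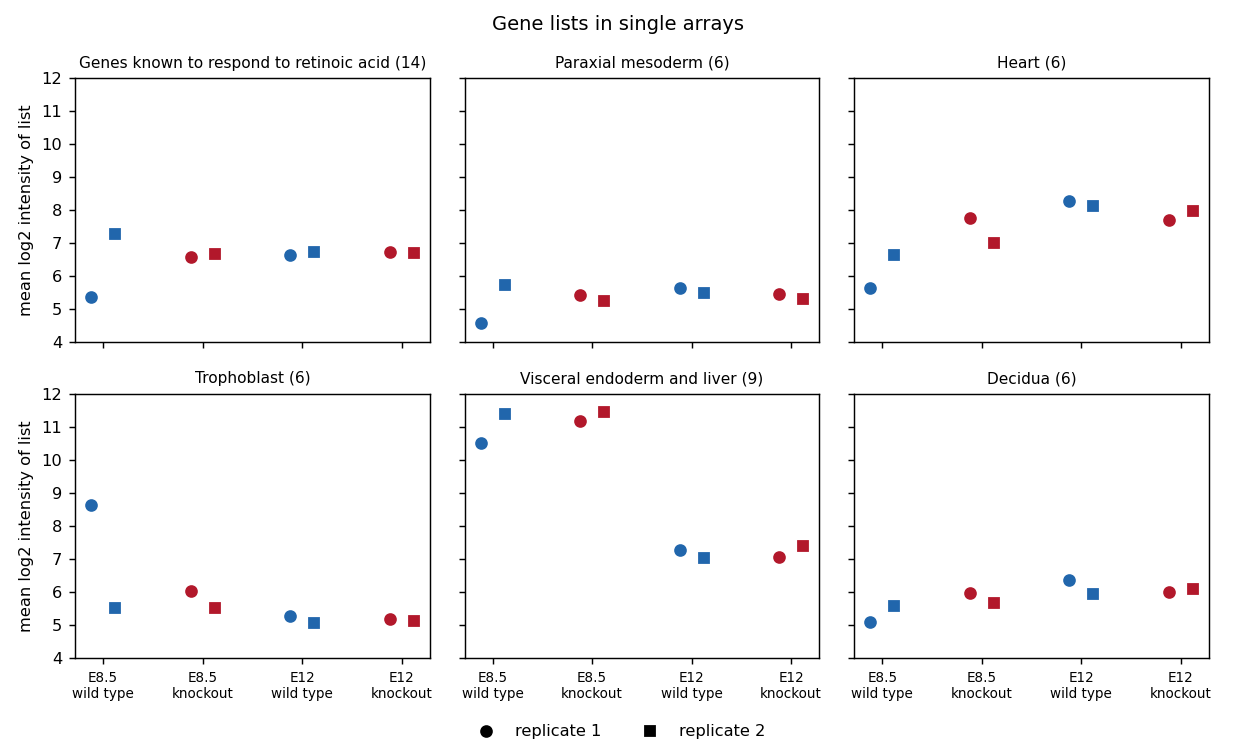
Mean log2 intensity (vertical axis) of 6 gene lists in each of the 8 arrays, grouped by stage and genotype, with the number of measured genes in each panel title. Circles are replicate 1 and squares replicate 2. Replicate 1 of the E8.5 wild type stands high for trophoblast markers (8.64) and low for genes that respond to retinoic acid (5.38), and visceral endoderm and liver markers fall from 10.53 to 11.46 at E8.5 to 7.03 to 7.41 at E12.

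Of the genes of retinol transport and uptake, Rbp4 was high at E8.5 and much lower at E12. In wild-type embryos its log2 values were 12.32 and 13.26 at E8.5, then 8.496 and 8.21 at E12. Those labelled knockout gave 13.07 and 13.71, then 8.05 and 8.68. All 4 E8.5 arrays lay above all 4 E12 arrays, while the genotypes overlapped at both stages. Between the stages Rbp4 fell by 4.44 (SE 0.39, 21.7-fold, limma adjusted p = 0.00154) in wild type. It fell by 5.02 (SE 0.39, 32.5-fold, limma adjusted p = 0.00112) in knockout. With quantile normalization of all arrays the differences were smaller, at -3.24 in wild type and -3.87 in knockout. When E8.5 wild type replicate 1 was left out, the wild-type difference was -4.91 (limma adjusted p = 0.000825). The knockout difference of Rbp4 was 0.60 (95% interval -0.34 to 1.54) at E8.5, or 0.13 (95% interval -0.74 to 0.997) without that array, and 0.02 (95% interval -0.92 to 0.96) at E12.

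Rbp4 is made by visceral endoderm and by liver, and the markers of those tissues moved with it. Of 10 such markers 9 were measured, and 8 of the 9 were lower at E12 in wild type by an absolute moderated t above 3, as in knockout. Cubn, a receptor of visceral endoderm, fell from between 12.99 and 13.35 at E8.5 to between 3.87 and 4.26 at E12, and its partner Amn from between 10.67 and 11.03 to between 3.80 and 4.13. Alb, the albumin gene of liver, went the other way, from between 4.27 and 4.55 to between 10.13 and 11.26. Cubn, Amn and Alb were picked after their values were seen. In whole embryos, fewer cells of a type and less RNA per cell cannot be told apart, and the part of visceral endoderm in the fall of Rbp4 was not tested.

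Stra6, the receptor for retinol bound to Rbp4, read low and varied little. It lay between percentiles 34.2 and 44.1 of all probe sets in its arrays, and the deposited values carry no detection calls. Wild-type embryos read 4.61 and 4.58 at E8.5, then 4.97 and 4.78 at E12. Those labelled knockout read 4.63 and 4.47, then 4.63 and 4.61. Both E12 knockout arrays lay below both E12 wild-type arrays, by 0.26 (SE 0.15, 95% interval of the difference -0.63 to 0.11), which limma did not call (adjusted p = 0.999987). The knockout difference at E8.5 was -0.05 (95% interval -0.41 to 0.32), or -0.03 without E8.5 wild type replicate 1. The stage difference was 0.28 (limma adjusted p = 0.226) in wild type, or 0.29 without that array, and 0.07 (limma adjusted p = 0.790) in knockout.

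Of the enzymes that make retinoic acid, Aldh1a1 rose with stage in both genotypes. The wild-type arrays showed 3.92 and 4.24 at E8.5, then 5.20 and 5.42 at E12. The arrays labelled knockout showed 3.80 and 3.94, then 5.17 and 4.85. No E8.5 array reached the lowest E12 array. All these values were low, between percentiles 15.6 and 28.5 of all probe sets at E8.5 and between 41.1 and 55.8 at E12. The rise was 1.23 (SE 0.20, 2.35-fold, limma adjusted p = 0.00715) in wild type and 1.14 (SE 0.20, 2.20-fold, limma adjusted p = 0.00967) in knockout. Without E8.5 wild type replicate 1 the wild-type rise was 1.08 (limma adjusted p = 0.0140). The knockout call was lost without either E8.5 knockout replicate (limma adjusted p = 0.0590 without replicate 1, 0.0549 without replicate 2) and without E12 knockout replicate 1 (limma adjusted p = 0.0843). The difference between genotypes was -0.21 (95% interval -0.68 to 0.27) at E8.5, or -0.36 without E8.5 wild type replicate 1. At E12 it was -0.30 (95% interval -0.78 to 0.18).

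Aldh1a2 lay between 9.52 and 10.24 in 7 of the 8 arrays and far lower in the array set apart. The E8.5 wild type gave 5.04 (replicate 1) against 9.79 (replicate 2), and wild-type embryos at E12 gave 9.55 and 9.68. Those labelled knockout gave 10.24 and 9.85, then 9.52 and 9.62. The gap of 4.75 between the E8.5 wild-type arrays was wider than for 99.8% of all probe sets. With all arrays, the difference between knockout and wild type at E8.5 was 2.63 (SE 1.33, 95% interval -0.55 to 5.81, limma adjusted p = 0.999693). Without replicate 1 it was 0.25 (SE 0.23, 95% interval -0.30 to 0.81, limma adjusted p = 0.753), and without replicate 2 it was 5.0045 (SE 0.23, limma adjusted p = 0.000258), so the choice of the wild-type array decided the value. At E12 the genotypes differed by -0.05, with a 95% interval of -3.23 to 3.13 from all arrays and of -0.50 to 0.40 without E8.5 wild type replicate 1. The stage difference in wild type was 2.20 (SE 1.33, limma adjusted p = 0.266) with all arrays and -0.17 (SE 0.23, limma adjusted p = 0.615) without that array. In knockout it was -0.48 (SE 1.33, limma adjusted p = 0.828) with all arrays. Leaving out E8.5 wild type replicate 1, which enters the shared spread, kept this value and brought its SE to 0.19.

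Of the binding proteins, Crabp1, which is linked to the handling of retinoic acid for breakdown, showed the same break. Wild-type embryos gave 4.30 (replicate 1) and 9.54 (replicate 2) at E8.5, then 8.73 and 8.69 at E12. Those labelled knockout gave 8.48 and 8.93, then 8.74 and 8.97. The gap of 5.23 in E8.5 wild type was wider than for 99.9% of probe sets. The knockout difference at E8.5 was 1.79 (SE 1.46, limma adjusted p = 0.999693) with all arrays. It changed sign without replicate 1, to -0.83 (SE 0.25, 95% interval -1.43 to -0.24, limma adjusted p = 0.254), and was 4.40 without replicate 2 (limma adjusted p = 0.000510). Likewise the stage difference in wild type was 1.79 (limma adjusted p = 0.409) with all arrays and -0.83 (limma adjusted p = 0.0451) without replicate 1. In knockout the stage difference was 0.15 (SE 1.46, limma adjusted p = 0.953) with all arrays, and its SE was 0.20 without E8.5 wild type replicate 1.

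Crabp2, which carries retinoic acid to its nuclear receptors, was the most uneven member within groups outside that array. The wild-type arrays read 6.72 (replicate 1) and 9.97 (replicate 2) at E8.5, then 9.88 and 10.96 at E12. The arrays labelled knockout read 11.12 and 9.22, then 10.91 and 11.15. The E8.5 knockout arrays alone spanned 1.90, and the genotypes overlapped at both stages. The knockout difference at E8.5 was 1.83 (SE 1.09, 95% interval -0.80 to 4.45) with all arrays and 0.20 (95% interval -1.59 to 1.99) without E8.5 wild type replicate 1. The stage difference was 2.08 (limma adjusted p = 0.208) in wild type, or 0.45 without that array. In knockout it was 0.86 (SE 1.09, limma adjusted p = 0.612) with all arrays, and its SE was 0.61 without that array.

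Cyp26a1, which clears retinoic acid, was lower at E12 than at E8.5 in both genotypes. Wild-type embryos showed 9.54 (replicate 1) and 8.73 (replicate 2) at E8.5, then 7.77 and 7.28 at E12. Those labelled knockout showed 9.80 and 9.77, then 7.39 and 7.38. Every E8.5 array lay above every E12 array, and both E8.5 knockout arrays lay above both E8.5 wild-type arrays. With stage it fell by 1.61 (SE 0.30, 3.06-fold, limma adjusted p = 0.0105) in wild type. In knockout it fell by 2.40 (SE 0.30, 5.29-fold, limma adjusted p = 0.00358). With quantile normalization the wild-type difference shrank to -0.83 and was no longer called (limma adjusted p = 0.109), while that in knockout was -1.65 (limma adjusted p = 0.0163). When E8.5 wild type replicate 1 was left out, the wild-type fall was smaller, at -1.21, and still called (limma adjusted p = 0.0118).

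The knockout difference of Cyp26a1 at E8.5 was 0.65 (SE 0.30, 95% interval -0.06 to 1.36, limma adjusted p = 0.999693) with all arrays. Here the array set apart was the one nearer the knockout. Without it the difference was 1.06 (SE 0.25, 95% interval 0.47 to 1.64), past an absolute t of 3 but with a limma adjusted p of 0.175. Without replicate 2 it was 0.25. At E12 it was -0.14 (95% interval -0.85 to 0.57).

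Of the receptors, Rara read low, between percentiles 29.2 and 49.8 of all probe sets in its arrays, and stayed within a narrow range. Its wild-type arrays gave 4.62 and 4.81 at E8.5, then 4.61 and 4.37 at E12, and its knockout arrays 4.98 and 4.60, then 4.46 and 4.56. Its knockout differences were 0.07 (95% interval -0.39 to 0.54) at E8.5, or -0.02 without E8.5 wild type replicate 1, and 0.02 (95% interval -0.45 to 0.48) at E12. Its stage differences, -0.23 (limma adjusted p = 0.425) in wild type, or -0.32 without that array, and -0.29 (limma adjusted p = 0.328) in knockout, were not called.

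Rarb was higher at E12 than at E8.5. Its wild-type arrays read 3.20 (replicate 1) and 4.13 (replicate 2) at E8.5, then 4.48 and 5.43 at E12, and its knockout arrays 4.43 and 4.02, then 5.51 and 5.65. Within each genotype the stages did not overlap. All Rarb values were low, between percentiles 3.33 and 35.3 of all probe sets at E8.5 and between 30.7 and 59.6 at E12. The stage difference was 1.29 (SE 0.41, limma adjusted p = 0.0597) in wild type and 1.35 (SE 0.41, limma adjusted p = 0.0542) in knockout, both past an absolute t of 3 and neither called. Without E8.5 wild type replicate 1 the knockout value was called (limma adjusted p = 0.0175) and the wild-type value was 0.82 (limma adjusted p = 0.160). Both E12 knockout arrays were above both E12 wild-type arrays, by a mean of 0.63 (95% interval -0.36 to 1.61). At E8.5 the genotypes overlapped, with a difference of 0.56, or 0.09 without replicate 1 of the wild type.

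**Figure D2:**
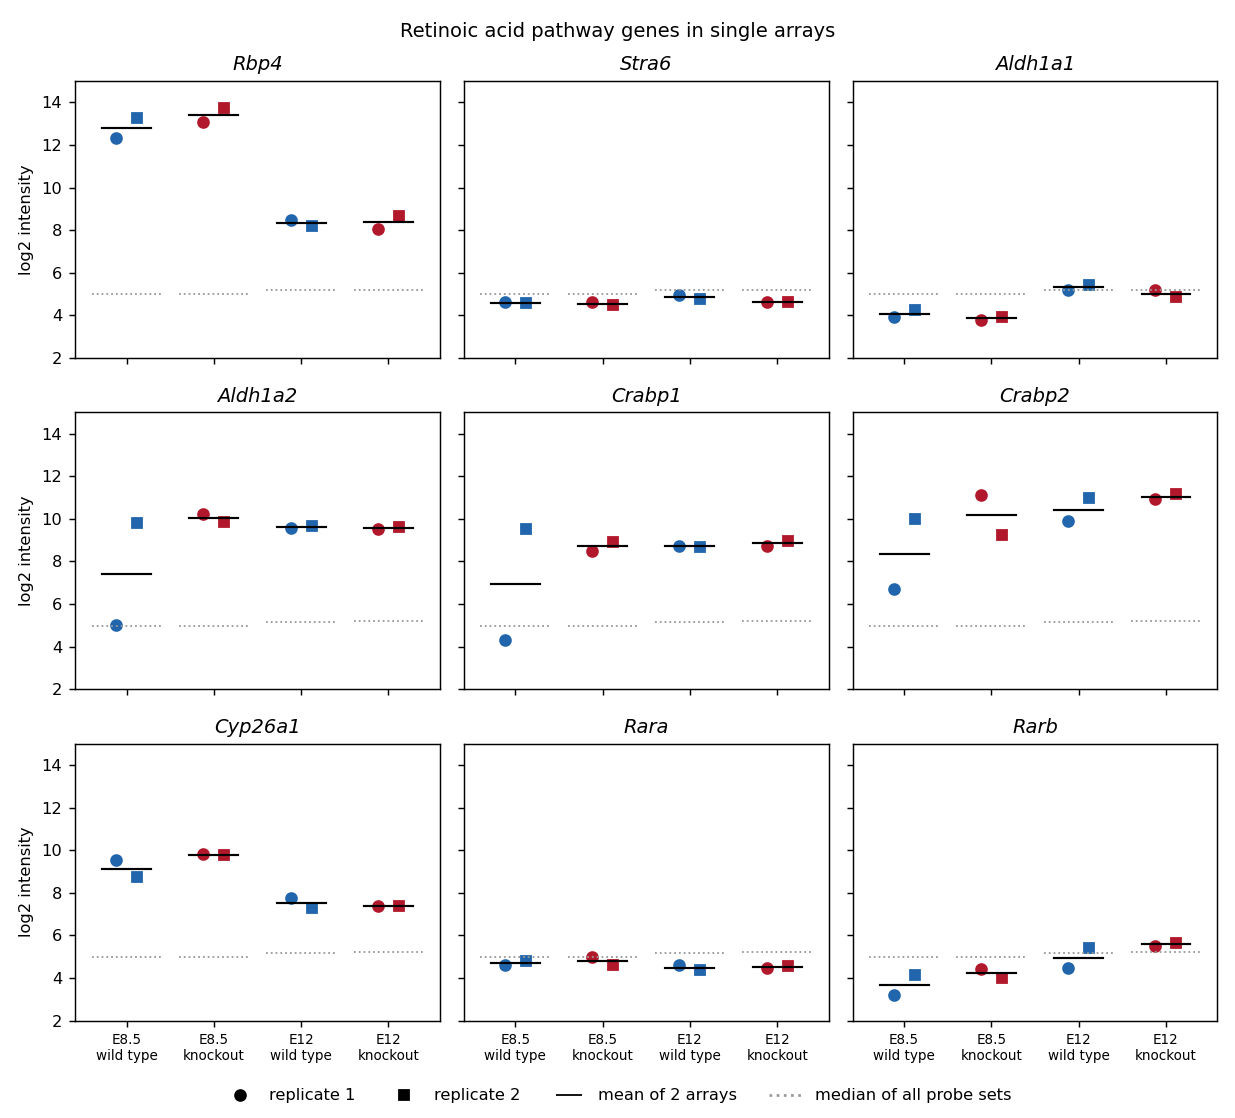
Log2 intensity (vertical axis) of the 9 genes in each array, by stage and genotype (horizontal axis). Circles are replicate 1, squares replicate 2, black bars the mean of 2 arrays, and dotted lines the median of all probe sets. Rbp4 and Cyp26a1 are lower and Aldh1a1 and Rarb higher at E12 than at E8.5, and Aldh1a2, Crabp1 and Crabp2 are low in E8.5 wild type replicate 1 alone.

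Read together for the knockout, 0 of the 9 genes were called at E8.5 at a limma adjusted p below 0.05, against 0% of all probe sets, and 0 passed an absolute t of 3, against 2.06%. At E12 0 were called, against 0.0133% of probe sets, and 0 passed the t threshold, against 0.655%. At an unadjusted p below 0.05 there were 0 members at either stage, against 2132 probe sets at E8.5 and 713 at E12. The lowest unadjusted limma p of a member was 0.0653 at E8.5 (Cyp26a1) and 0.140 at E12 (Stra6). The groups did not overlap for 2 genes at E8.5, Aldh1a2 and Cyp26a1, both higher in knockout, against 29.2% of probe sets. At E12 they did not overlap for 4, with Crabp1 and Rarb higher and Aldh1a1 and Stra6 lower, against 28.4%. The median difference of the members was 0.60 at E8.5 and 0.02 at E12, beside -0.02 and 0.01 over all probe sets. When E8.5 wild type replicate 1 was left out, the median at E8.5 was 0.09. With 2 arrays against 2, an exact permutation test cannot go below p = 0.333, so the tests here borrow the spread of all probe sets.

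Without E8.5 wild type replicate 1, 2 members passed the t threshold at E8.5, Crabp1 and Cyp26a1, against 7.05% of probe sets, and 0 were called, against 0.00666%. Without replicate 2 of that group, the wild type is the array set apart alone. The knockout difference was then 5.0045 for Aldh1a2 and 4.40 for Crabp1. Heart markers also differed at E8.5: the mean of the 6 was 5.66 (replicate 1) and 6.66 (replicate 2) for wild type against 7.77 and 7.01 for knockout. Of the 6, 3 passed the t threshold upwards, with all arrays and likewise without E8.5 wild type replicate 1. The threshold was also passed upwards by 1 of 5 epicardium and mesothelium markers, Tcf21 (1.61, SE 0.29), and by 1 of 6 decidua markers, Prl3c1 (0.80, SE 0.19). The same lists held lower genes that did not pass it with all arrays, such as Upk3b (-0.75, SE 0.52) and Wnt4 (-0.76, SE 0.27). The list medians were 0.17 and 0.68. For the 5 red cell markers the median was -0.76, or -1.44 without E8.5 wild type replicate 1. No marker was called. Their part in the values above was not tested.

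**Figure D3:**
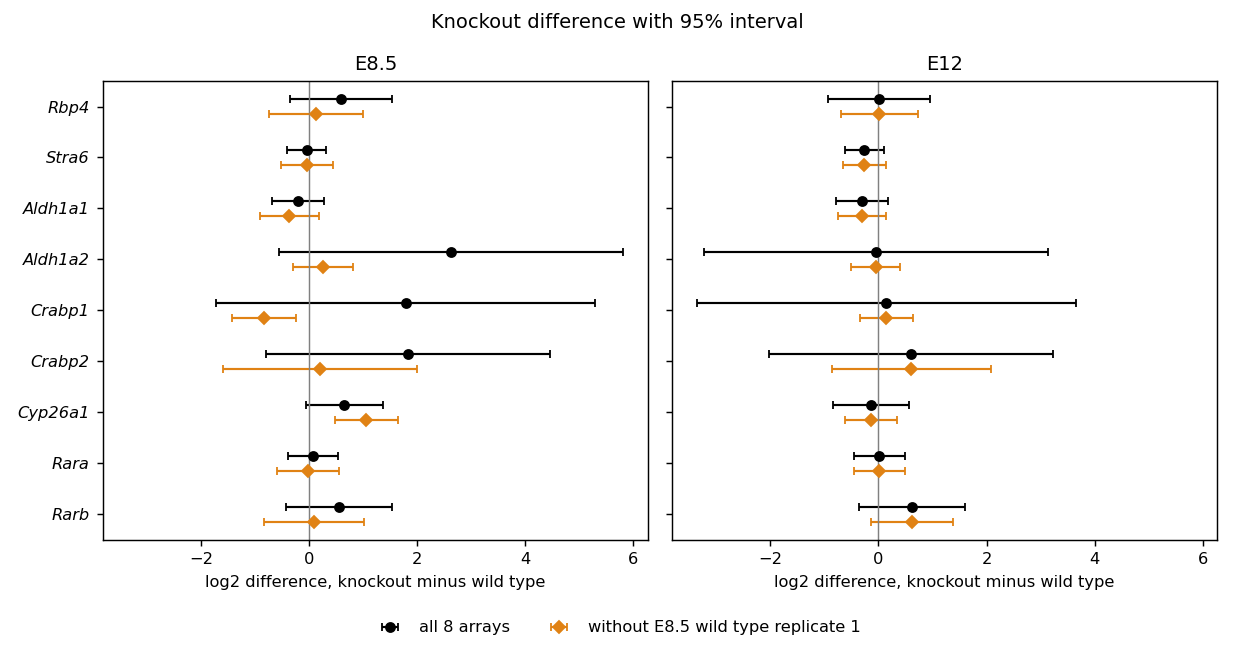
Difference in log2 intensity between knockout and wild type (horizontal axis) for the 9 genes at E8.5 and E12, with 95% intervals. Black circles use all 8 arrays and orange diamonds leave out E8.5 wild type replicate 1. The wide intervals of Aldh1a2, Crabp1 and Crabp2 narrow without that array, and Cyp26a1 at E8.5 moves from 0.65 to 1.06.

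Whether the knockout difference changed between stages was tested directly. Of the 9 genes 0 were called, against 0.00444% of probe sets, and 0 passed an absolute t of 3, against 0.688%. At an unadjusted p below 0.05 there were 0, beside 842 probe sets. The estimate for Aldh1a2 was -2.68 (SE 1.88) and that for Cyp26a1 -0.79 (SE 0.42), the latter with the lowest unadjusted limma p of the members (0.103). When E8.5 wild type replicate 1 was left out, Cyp26a1 was at -1.20 (SE 0.32, limma adjusted p = 0.429) and Crabp1 at 0.98 (SE 0.32, limma adjusted p = 0.521). Both then passed the t threshold, against 3.97% of probe sets.

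Between stages many genes moved. In wild type 3 of the 9 genes were called, against 27.8% of all probe sets, and 4 passed an absolute t of 3, against 31.7%. In knockout 3 were called, against 25.6%, and 4 passed the t threshold, against 30.1%. The called genes were Rbp4, Cyp26a1 and Aldh1a1 in both genotypes, with Rarb added by the t threshold. These shares are near those of all probe sets. Without E8.5 wild type replicate 1, 4 members were called in wild type, with Crabp1 added, against 31.5% of probe sets, and 4 in knockout, with Rarb added, against 35.7%. The stages did not overlap for 6 genes in wild type, against 61.4% of probe sets, and for 6 in knockout, against 74.7%. The distribution of intensities itself differed by stage, since array medians lay between 4.96 and 5.01 for E8.5 but between 5.16 and 5.20 for E12, and 99th percentiles between 12.2 and 12.3 but between 10.5 and 11.1.

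**Figure D4:**
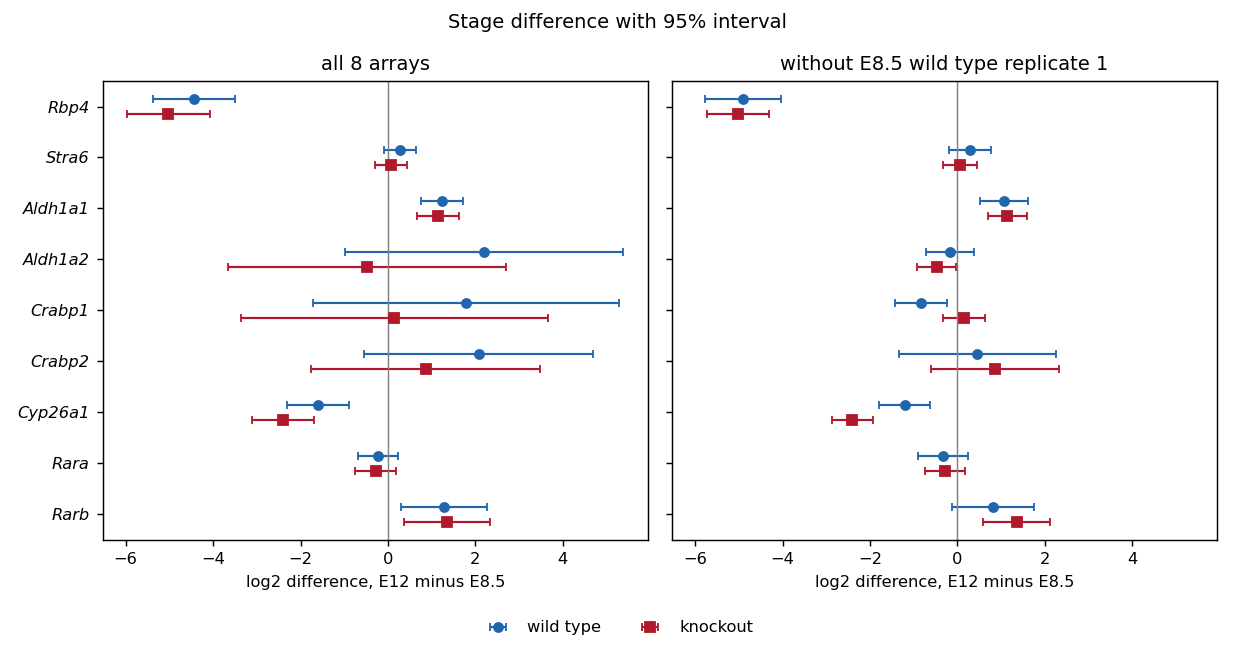
Difference in log2 intensity between E12 and E8.5 (horizontal axis) with 95% intervals, in wild type (blue circles) and knockout (red squares), from all 8 arrays and without E8.5 wild type replicate 1. Rbp4 lies between -4.44 and -5.02, Cyp26a1 between -1.21 and -2.40 and Aldh1a1 between 1.08 and 1.23, while Crabp1 in wild type moves from 1.79 to -0.83.

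The rest of the pathway was read from a list of 47 other genes, of which 40 had a probe set. Between knockout and wild type at E8.5, 0 of the 40 were called, against 0% of all probe sets. An unadjusted limma p below 0.05 was found for 4, against 2132 of 45037 probe sets. The t threshold was passed by 1, downwards, which is near the 2.06% of all probe sets that passed it. That gene was Nr2f2, an orphan nuclear receptor that responds to retinoic acid. At E8.5 the wild-type arrays read 8.52 and 8.39 against 7.22 and 7.39 in knockout, a difference of -1.16 (SE 0.17, limma adjusted p = 0.843). Of its 6 probe sets 6 were lower in the arrays labelled knockout and 4 of them passed the t threshold. When E8.5 wild type replicate 1 was left out, the difference was -1.09 (SE 0.21, limma adjusted p = 0.142). By E12 Nr2f2 was at 8.64 and 8.88 (wild type) against 8.89 and 8.74 (knockout). The change of its knockout difference between stages was 1.21 (SE 0.24, limma adjusted p = 0.999741), past the t threshold in 1 of its 6 probe sets, and 1.14 (limma adjusted p = 0.394) without that array.

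Without the array set apart, the E8.5 wild type rests on 1 array. The median knockout difference over the 40 pathway genes then moved from 0.0043 to -0.18. Over the 14 genes known to respond to retinoic acid it moved from 0.06 to -0.40. Over all probe sets it was -0.02 in both fits. Whether the lower values belong to the knockout or to the 1 wild-type array was not tested.

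At E12, 0 of the 40 pathway genes were called between genotypes, 0 passed the t threshold and 0 had an unadjusted limma p below 0.05. Of all 45037 probe sets, 0.0133% were called, 0.655% passed the t threshold and 713 had such a p. The highest absolute t values belonged to Adh7, a retinol dehydrogenase, at -0.30 (SE 0.16), and Cyp26b1, a relative of Cyp26a1 that also clears retinoic acid, at -0.19 (SE 0.15). Of the 2 probe sets of Adh7, only 1 had this sign. Between stages 9 of the 40 rose and 5 fell in wild type, where 27.8% of all probe sets were called, and 9 rose and 5 fell in knockout, where 25.6% were. Without E8.5 wild type replicate 1 the counts were 6 and 15 in wild type (31.5% of all probe sets called) and 11 and 11 in knockout (35.7%). Ttr, the plasma partner of Rbp4, fell by 4.61 (SE 0.34, limma adjusted p = 0.00105) in wild type. In knockout it fell by 4.57 (SE 0.34, limma adjusted p = 0.00104). The wild-type value without the array set apart was -4.83. Ttr is also one of the visceral endoderm and liver markers.

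Cyp26b1 moved opposite to Cyp26a1. Wild-type embryos gave 5.04 and 4.92 at E8.5, then 6.86 and 6.98 at E12. Those labelled knockout gave 4.86 and 4.79, then 6.73 and 6.73. It rose by 1.94 (SE 0.15, limma adjusted p = 0.00106) in wild type and by 1.90 (SE 0.15, limma adjusted p = 0.00108) in knockout. Adh1, a retinol dehydrogenase, rose by 2.54 (SE 0.30, limma adjusted p = 0.00303) in wild type. When E8.5 wild type replicate 1 was left out, the wild-type values were 2.00 for Cyp26b1, 2.86 for Adh1 and 1.58 for Ncoa1, all still called. Ncoa1, a coactivator of nuclear receptors, rose by 1.71 in wild type and 1.93 in knockout (SE 0.17 for both), although 1 of its 3 probe sets passed the t threshold in each. By role, uptake, storage and transport gave 0 called genes up and 1 down of 6 in both genotypes. Conversion of retinol and retinal gave 3 up and 3 down of 8 in wild type and 2 up and 3 down in knockout. Synthesis and breakdown gave 1 up and 0 down of 4, then 2 up and 1 down. Receptors and cofactors gave 2 up and 0 down of 8, then 1 up and 0 down. Among the 14 responsive genes 3 rose and 1 fell in wild type, and 4 rose and 0 fell in knockout. With so few genes in a role, these counts are descriptions beside the 27.8% and 25.6% of all probe sets. Without E8.5 wild type replicate 1 the responsive genes gave 2 up and 6 down in wild type and 6 up and 4 down in knockout.

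Genes whose pattern over the 8 arrays was most like that of each member were found among 8831 or 8832 genes with a mean log2 of 6 or more. Pdzrn3 was the most like Aldh1a2 (Pearson r = 0.997) and Mex3a the most like Crabp1 (r = 0.992), with Fstl1 and Smarcd3, and Tenm3 and Gpt2, next in order. For Crabp2 they were Sort1 (r = 0.991), Ttn and Zkscan3. The low value of E8.5 wild type replicate 1 enters each of these 3 orders. Mttp, which loads lipid onto lipoproteins in yolk sac and liver, led for Rbp4 (r = 0.998), followed by Gldc and 2310057M21Rik. Flvcr2 led for Cyp26a1 (r = 0.994), followed by Mreg and Gipc2, Tent5c for Aldh1a1 (r = 0.982), followed by Ctse and Uba7, and Rufy3 for Rarb (r = 0.989), followed by Smad5 and Ldhb. Stra6 and Rara, which read low within narrow ranges, had lower highest values. For Stra6 it was 0.963 with Inpp5a, ahead of Pck2 and Pik3r2. For Rara it was 0.919 with Dpep1, ahead of Rab5c and Kat5.

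Among the members themselves, Aldh1a2 and Crabp1 had r = 0.967 over 8 arrays but -0.203 over the 7 without E8.5 wild type replicate 1, and Aldh1a2 and Crabp2 had 0.879 and 0.063. Rbp4 and Cyp26a1 kept theirs, at 0.939 and 0.943, and Aldh1a1 ran opposite to Cyp26a1 at -0.959 and -0.951. The high values of Aldh1a2 with Crabp1 and Crabp2 over 8 arrays thus rest on that 1 array. The arrays fall into 2 stages, so the values of Cyp26a1 with Rbp4 and Aldh1a1 describe the stage shift that these genes share. None of the values carries a test.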

How the data were processed

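Embryo propers were homogenised in Trizol, and total RNA went through a 2-round amplification before hybridisation, which favours transcript ends and can add spread for dim genes. The authors normalised and summarised the probe sets by Robust Multi-array Analysis and deposited linear intensity values, 1 per probe set and array, with no detection calls. Whether both stages were normalised together is not given in the sources used here. From the deposited intensities, log2 values were taken with no pseudocount. Removing 64 control probe sets left 45037, which entered limma (version 3.58.1, under R version 4.3.3) as linear models with 1 mean per group over all 8 arrays, empirical Bayes moderation and Benjamini-Hochberg adjustment over all of them. A gene was called at an adjusted p below 0.05, and an absolute moderated t above 3, the threshold of the study's methods, was a second rule. Old symbols were updated through RefSeq gene identifiers: 34945 probe sets had 1 gene, 932 several and 9160 none named. Where a gene had several probe sets, the one with the highest mean represented it, and each of the 9 members had 1. The number of arrays limits the precision. Groups followed the sample titles.

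The members, lists and tests were chosen with earlier results of these data known. Besides the members, up to 4 pathway genes per comparison with the highest absolute t past a threshold (otherwise 2) and the 3 genes most like each member were named. Alternatives were quantile normalization, 16 added before log2, dim probe sets left out, single-stage fits, array weights, an intensity trend, a replicate block and each array left out.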

Additional observations from a re-analysis of the deposited data

How the results depend on the processing

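The counts of members called stayed within 1.5 times under quantile normalization, 16 added before log2, single-stage fits, array weights and an intensity trend. With dim probe sets (mean log2 below 6) left out, Aldh1a1, Rara, Rarb and Stra6 were not tested, and 2 members passed the t threshold in the stage comparison of wild type and 2 in that of knockout. Quantile normalization turned the sign of 4 differences, none of them called: Rbp4 (-0.025) and Rara (-0.0075) between genotypes at E12, and Aldh1a2 (0.57) and Stra6 (-0.14) between stages in knockout. Over all probe sets, the stage calls in wild type were 12525, against 7971 with array weights and 7074 without dim probe sets, and in knockout 11539, against 19889 and 6372. Between genotypes at E12 the 6 called probe sets became 1 to 9, and the 2 for the change of the knockout difference 0 to 7. A mean over all probe sets of a gene changed nothing, since each member has 1. Deviations of replicate 1 from its group mean correlated between the genotypes at 0.372 for E8.5 and 0.173 for E12. Across stages the correlations were from -0.121 to 0.0756. With 2 arrays per group these values cannot tell whether replicate numbers pair the samples. With the replicate block 3 members were called between stages in wild type and 4 in knockout, where Rarb joined (limma adjusted p = 0.0492). With crossed numbers in the knockout arrays alone, chosen after seeing the data, 4 were called in the replicate block. The counts of members in the block fits and without dim probe sets stand without a matching share of all probe sets, so they describe the fits only.

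Leaving out 1 array at a time, the genes called at E8.5 between genotypes ranged from 0 to 2 and those past the t threshold from 0 to 3. Between stages in wild type both counts ranged from 3 to 7, in knockout the called genes from 2 to 4, and for the change of the knockout difference both from 0 to 2. Outside the knockout stage comparison each highest count came without E8.5 wild type replicate 2, and for the change of the knockout difference past the t threshold also without replicate 1. These ranges stand without the share of all probe sets in each fit, so they describe the fits and are not a result about the members. With all arrays, 27.8% of all probe sets were called between stages in wild type and 25.6% in knockout. Signs turned, with these ranges, for the knockout difference at E8.5 of Crabp1 (-0.83 to 4.40), Rara (-0.12 to 0.26) and Stra6 (-0.13 to 0.038), and at E12 of Cyp26a1 (-0.38 to 0.11), Aldh1a2 (-0.12 to 0.019), Rbp4 (-0.30 to 0.33) and Rara (-0.10 to 0.14). Between stages they turned in wild type for Aldh1a2 (-0.17 to 4.58) and Crabp1 (-0.83 to 4.41), and in knockout for Crabp1 (-0.077 to 0.37), Crabp2 (-0.089 to 1.81) and Stra6 (-0.018 to 0.15). The causes were not tested. Arrays of 1 group varied more at E8.5 (residual variance 0.215) than at E12 (0.0735), so the shared spread makes E12 intervals wide for Aldh1a2, Crabp1 and Crabp2.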
